A study of Mus musculus with 40 samples.

Results

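The myeloid C-type lectin receptors described here are 9 genes of the 47729 in the deposited tables: Clec12a, Clec4b1, Clec4a2, Clec4a3, Clec4d, Clec4e, Clec4n, Clec7a and Clec10a. They were taken by symbol, as a family picked because Clec12a and Clec4b1 lead the response to dietary conjugated linoleic acid (CLA) in these data. The CLA values of the 9 genes therefore chose the family, and they are given as a description with no test. Estrogen and time among controls were not used in that choice, and they were tested.

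RNA was sequenced from the inguinal mammary gland (number 4, lymph node cut out) of Balb/cJ mice. All mice, controls included, had their ovaries removed at 21 days of age, so they lacked the ovarian source of estrogen, and had 7 days of recovery before the regimens began. CLA mice were fed a purified diet based on AIN 93G with CLA at 2.7%, and were killed after 108 h or 132 h beside mice on the control diet. Whether 2.7% is a share of the diet or of its fat is not clear from the labels. Estrogen mice took the control diet and 200 nM estrogen in their drinking water, and were killed after 60 h or 84 h beside mice on the control diet alone. Each of the 8 groups held 5 mice, which the series describes as biological replicates, and no group received both CLA and estrogen. The animal numbers of all 10 estrogen mice form a run that holds no control, so estrogen and that run cannot be told apart.

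C-type lectin receptors are membrane proteins with which macrophages, dendritic cells, monocytes and neutrophils read sugars and lipids of microbes and of dying cells. Activating members signal through the kinase Syk, either by a motif in their own tail or by pairing with the adaptor Fcer1g, and through Card9, Bcl10 and Malt1 to NF-kB. Inhibitory members carry a tail motif that draws the phosphatases Ptpn6 and Ptpn11. In the mammary gland macrophages surround the ducts and are needed for ductal growth in puberty.

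On build GRCm38, 6 of the 9 genes lie within 337 kb of chromosome 6, in the order Clec4a3, Clec4b1, Clec4a2, Clec4n, Clec4d and Clec4e (122952515 to 123289870). Clec12a and Clec7a lie in a 130 kb stretch of the same chromosome (129342691 to 129472779), 6053 kb further on, and Clec10a is on chromosome 11 (70156197 to 70170834). RefSeq promoter windows (GRCm38.p6) were found for 7 of the 9 genes. The 250 bases before the start that RefSeq annotates are printed for 4 of them. The gene spans above are from GENCODE, which starts Clec12a further upstream than this RefSeq start, so the Clec12a window lies inside the span. GENCODE types Clec7a as a polymorphic pseudogene on this build and the other members as protein coding. Clec12a and Clec4b1 are shown because their levels were the most raised with CLA at 108 h. At 132 h Clec7a (9.61-fold) and Clec4a2 (9.31-fold) were raised slightly more than Clec4b1 (9.12-fold). Clec4d and Clec4e are shown because they moved together from mouse to mouse. Capitals mark letters that match GAGGAA (the core bound by the myeloid factor PU.1), TTNNGCAA (the C/EBP motif) or TGANTCA (the AP-1 motif), on either strand, and no match overlapped another.
Clec12a, chr6:129349994-129350243, plus strand: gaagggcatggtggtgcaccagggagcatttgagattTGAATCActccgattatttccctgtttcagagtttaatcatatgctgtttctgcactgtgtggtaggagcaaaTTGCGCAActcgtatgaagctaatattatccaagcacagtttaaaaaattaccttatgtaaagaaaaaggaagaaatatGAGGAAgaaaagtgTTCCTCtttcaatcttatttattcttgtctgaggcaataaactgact
Clec4b1, chr6:123049712-123049961, plus strand: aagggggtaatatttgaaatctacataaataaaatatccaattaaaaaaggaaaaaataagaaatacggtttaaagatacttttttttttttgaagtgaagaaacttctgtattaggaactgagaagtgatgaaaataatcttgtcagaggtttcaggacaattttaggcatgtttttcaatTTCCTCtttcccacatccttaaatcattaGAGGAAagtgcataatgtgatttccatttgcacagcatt
Clec4d, chr6:123261857-123262106, plus strand: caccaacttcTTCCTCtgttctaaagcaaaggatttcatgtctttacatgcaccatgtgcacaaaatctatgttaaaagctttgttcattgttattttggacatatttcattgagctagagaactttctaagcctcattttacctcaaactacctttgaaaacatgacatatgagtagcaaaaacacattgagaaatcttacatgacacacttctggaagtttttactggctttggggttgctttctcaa
Clec4e, chr6:123289872-123290121, minus strand: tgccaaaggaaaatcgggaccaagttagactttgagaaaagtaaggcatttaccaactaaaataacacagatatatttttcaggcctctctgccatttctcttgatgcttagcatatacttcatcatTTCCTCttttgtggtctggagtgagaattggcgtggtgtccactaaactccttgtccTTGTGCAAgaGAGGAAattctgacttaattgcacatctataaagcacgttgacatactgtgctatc
The 7 genes had 9 windows, since Clec4a3 and Clec7a each had a pair. GAGGAA was present in 7 of the 9 windows (all but that of Clec4a2 and one of the pair of Clec4a3), against 23.3% of the 32851 RefSeq windows of the same length. The pair of Clec7a windows overlap and hold the same match, so it is counted again in the 7. By gene, GAGGAA was present in 6 of 7. TTNNGCAA was present in 2 windows, those of Clec12a and Clec4e, against 9.56% of all windows, and TGANTCA in 1, that of Clec12a, against 6.75%. A match is a stretch of letters, and binding was not measured.

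Total counts per library ran from 18183713 to 40026800, which gave the 9 genes between 1 count (Clec4e in a control at 132 h) and 5132 counts (Clec10a). Levels are given as CPM (counts relative to the library total, TMM-scaled over the 40 libraries) within a gene, and as the deposited RPKM (reads relative to transcript length and library total) between genes. The mitochondrial share of counts averaged 5.81 ± 0.70% in CLA glands and 7.76 ± 0.55% in their controls at 108 h (SD, n = 5 each), and 5.66 ± 1.60% and 8.59 ± 0.83% in CLA and control glands at 132 h. Skin and hair genes had a mean above 1.5 on the log2 CPM scale in 12 libraries (skin-high libraries), namely 4 estrogen libraries and 8 control libraries. No CLA library was among these 12, while 3 of the 5 controls at 108 h and 3 of the 5 at 132 h were. The skin signal was therefore uneven between CLA and control libraries. Of 50-base words in their transcripts, Clec10a shares 9.02% with other genes (Mgl2 and Gm28940), Clec4b1 8.68% with Clec4a2, and Clec4a2 6.83%, mainly with Clec4a4 and Clec4b1. How the authors assigned such reads is not given in the sources used here, so in read assignment these 3 genes are less certain than the rest.

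With CLA, 6 of the 9 receptors were higher at both times with no overlap between the CLA and control libraries: Clec12a, Clec4a2, Clec4b1, Clec4a3, Clec7a and Clec10a. Over all tested genes, 18.1% at 108 h and 20.8% at 132 h were higher without overlap, and nothing is read from this beside members chosen on the same contrast. Clec12a had the largest difference, 15.1-fold at 108 h and 29.2-fold at 132 h, and Clec10a the smallest of the 6, 3.37-fold and 3.90-fold. Clec4d, Clec4e and Clec4n overlapped their controls at both times. The median log2 fold change of the 9 was 1.78 at 108 h and 2.47 at 132 h, against −0.01 and −0.03 over all genes tested.

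**Figure D1:**
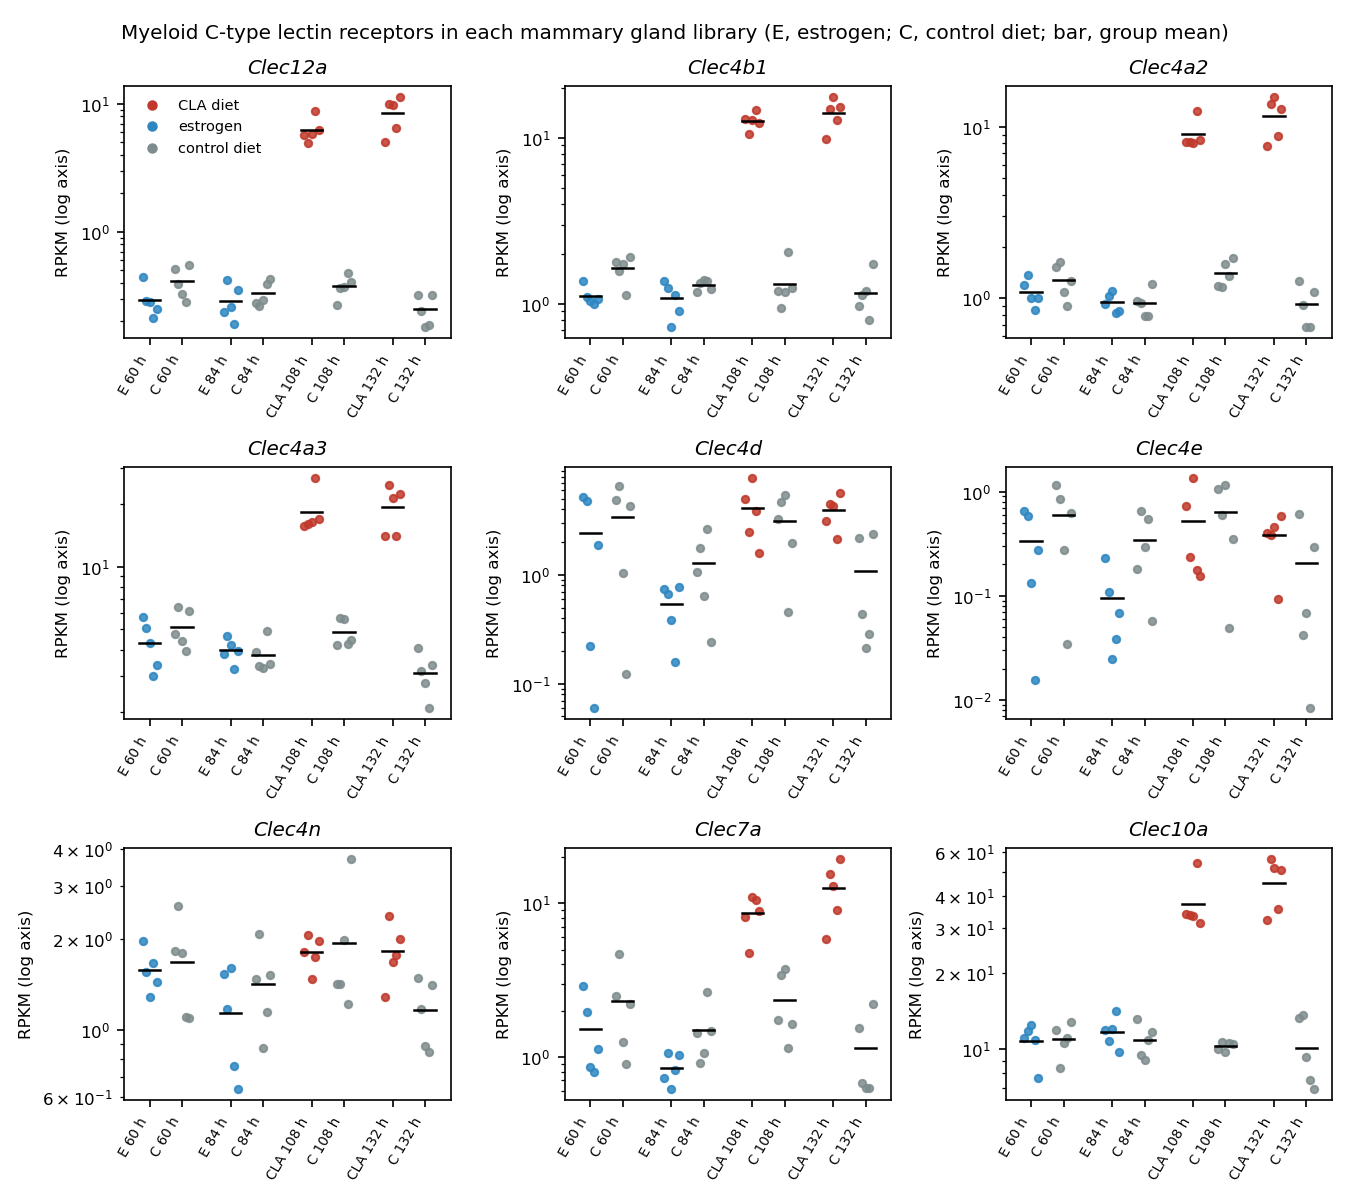
Deposited RPKM (log axis) of each receptor in each of the 40 libraries, by group, with the treated group left of its control and a bar at the group mean. For Clec12a the 5 CLA libraries at 108 h sit between 4.90 and 8.81 RPKM and all 5 controls at 0.480 or less, while Clec4d and Clec4e spread widely within most groups.

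The inhibitory receptors come first. Clec12a, which carries the inhibitory tail motif and binds uric acid crystals of dead cells, had 40.0, 34.9, 41.4, 63.3 and 42.9 CPM in CLA glands at 108 h, against 2.15, 2.76, 2.92, 3.79 and 3.04 CPM in controls. At 132 h Clec12a stood at 38.3, 67.2, 64.7, 43.6 and 79.6 CPM in CLA glands, against 2.39, 1.79, 1.51, 1.65 and 2.60 CPM in controls. The groups were far apart, the lowest CLA library holding 9.20 times the highest control at 108 h and 14.7 times at 132 h. Its fitted log2 fold change was 3.92 ± 0.22 at 108 h and 4.87 ± 0.26 at 132 h (SE, n = 5 per group).

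Clec4a2, the inhibitory receptor DCIR, reached 28.8, 27.3, 27.1, 44.7 and 30.2 CPM in CLA glands at 108 h, against 5.46, 4.24, 7.39, 4.95 and 6.69 CPM in controls. At 132 h its CLA libraries held 30.1, 45.2, 47.8, 29.8 and 45.0 CPM, against 5.36, 3.42, 3.59, 3.35 and 5.29 CPM in controls. All CLA libraries lay above all controls, with log2 fold changes of 2.46 ± 0.18 at 108 h and 3.22 ± 0.17 at 132 h.

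Among receptors that pair with Fcer1g, Clec4b1 (DCAR) was the one whose CLA and control libraries did not overlap. It had 12.3, 11.0, 12.4, 14.5 and 11.7 CPM in CLA glands at 108 h, against 1.48, 1.14, 1.56, 2.21 and 1.64 CPM in controls. At 132 h it had 10.6, 13.5, 15.1, 12.3 and 14.6 CPM in CLA glands, against 1.10, 1.37, 1.24, 0.882 and 2.56 CPM in controls. The groups were far apart at both times, with log2 fold changes of 2.94 ± 0.18 and 3.19 ± 0.21. Its CPM and RPKM ranked the 40 libraries less alike than those of any other member (Spearman's rho 0.860, against 0.953 to 0.998). By RPKM the means were 12.6 ± 1.46 with CLA and 1.32 ± 0.42 in controls at 108 h (SD, n = 5 each).

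Clec4n (dectin-2), which recognises fungal mannans, lies between Clec4a2 and Clec4d on the chromosome. It had 3.29, 3.70, 2.85, 3.13 and 3.46 CPM in CLA glands at 108 h, against 3.25, 2.72, 4.05, 2.41 and 7.04 CPM in controls, a fitted log2 fold change of −0.24 ± 0.26. The CLA values lay inside the control range. At 132 h Clec4n had 2.43, 4.25, 2.86, 3.26 and 3.79 CPM in CLA glands, against 2.96, 2.45, 1.74, 1.82 and 2.91 CPM in controls, a log2 fold change of 0.47 ± 0.26 with overlapping groups.

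Clec4d (MCL) and Clec4e (Mincle), neighbours that together bind mycobacterial glycolipid and, for Clec4e, a protein of dead cells, overlapped their controls at both times. Over the 8 groups, the highest library of a group held 2.74 times (CLA at 132 h) to 76.0 times (estrogen at 60 h) the lowest for Clec4d, and 6.25 to 66.2 times for Clec4e. Clec4d had 11.0, 5.51, 19.4, 8.52 and 3.56 CPM in CLA glands at 108 h, against 8.29, 10.2, 15, 1.22 and 4.43 CPM in controls (log2 fold change 0.29 ± 0.93). At 132 h it had 6.74, 9.63, 9.27, 4.46 and 12.2 CPM in CLA glands, against 5.72, 1.14, 0.618, 0.647 and 6.70 CPM in controls (2.82-fold, SE 0.69 on the log2 scale). Of the 5 controls at 132 h, 2 lay within the CLA range and 3 were below it. Clec4e had 4.40, 1.42, 8.54, 1.11 and 0.922 CPM in CLA glands at 108 h, against 6.85, 3.71, 7.62, 0.311 and 2.40 CPM in controls (log2 fold change −0.34 ± 0.89). At 132 h it had 2.65, 2.31, 2.64, 0.583 and 3.64 CPM in CLA glands, against 3.90, 0.294, 0.463, 0.0588 and 2.12 CPM in controls (0.77 ± 0.79).

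Clec7a (dectin-1), which binds fungal beta-glucan and signals through its own tail, had 27.1, 16.6, 38.1, 35.8 and 29.8 CPM in CLA glands at 108 h, against 6.34, 12.2, 14.2, 4.24 and 5.86 CPM in controls. The groups were separated by a narrow gap, the lowest CLA library being 1.17 times the highest control. At 132 h Clec7a had 21.5, 50.6, 40.8, 29.1 and 65.6 CPM in CLA glands, against 5.64, 2.41, 2.43, 2.41 and 8.51 CPM in controls, and the gap was 2.52 times. The log2 fold changes were 1.78 ± 0.45 and 3.26 ± 0.41.

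Clec4a3 (DCIR3), a member whose function is less known, averaged 33.7 ± 8.89 CPM in CLA glands and 9.53 ± 1.24 CPM in controls at 108 h, and 35.0 ± 8.20 against 6.23 ± 1.32 CPM at 132 h (SD, n = 5 each). Its log2 fold changes were 1.82 ± 0.18 and 2.47 ± 0.17. Clec10a (MGL1), which binds terminal galactose and N-acetylgalactosamine and is found on tissue macrophages, had 97.5, 102, 102, 166 and 92.7 CPM in CLA glands at 108 h, against 33.3, 32.9, 32.1, 34.7 and 33.4 CPM in controls. At 132 h Clec10a averaged 133 ± 28.5 CPM in CLA glands and 33.8 ± 7.87 CPM in controls, and its log2 fold changes were 1.75 ± 0.15 and 1.96 ± 0.17.

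**Figure D2:**
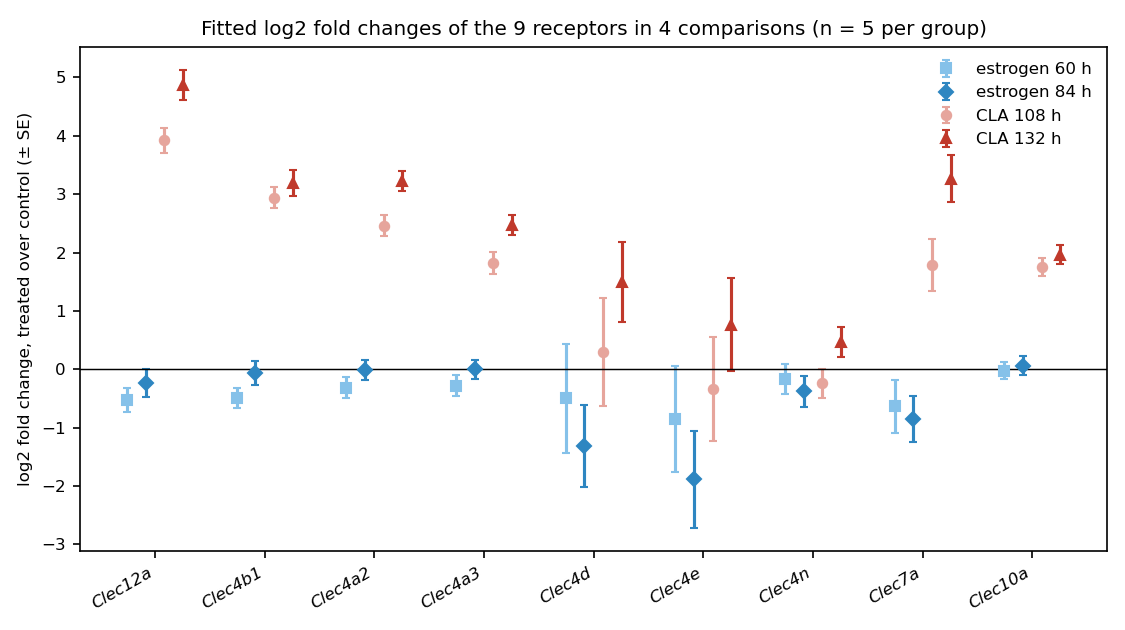
Fitted log2 fold changes of the 9 receptors (treated over control, error bars SE, n = 5 per group) for estrogen at 60 h and 84 h and CLA at 108 h and 132 h. CLA values run from −0.34 (Clec4e) to 4.87 (Clec12a), and estrogen values from −1.89 (Clec4e) to 0.06 (Clec10a).

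Between the CLA times, the log2 fold change at 132 h minus that at 108 h was 1.48 ± 0.61 for Clec7a, 0.95 ± 0.34 for Clec12a, 0.76 ± 0.25 for Clec4a2 and 0.65 ± 0.25 for Clec4a3. It was 0.25 ± 0.28 for Clec4b1 and 0.21 ± 0.22 for Clec10a. Part of this came with lower control levels at 132 h: the CLA means of Clec4a3 were 35.0 CPM at 132 h and 33.7 CPM at 108 h, while its control means were 6.23 and 9.53 CPM. These differences were not tested.

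Animal numbers fall into runs, and CLA and control mice shared a pair of runs at 108 h and 3 runs at 132 h. Within each of them these 6 receptors were higher without overlap, and at 132 h Clec4d was so as well in all 3 runs (log2 ratio of mean CPM 0.87 to 2.82). For the 6 the same ratio ran from 1.56 to 3.98 and from 1.95 to 4.03 within the runs at 108 h, and from 1.68 to 4.94 within those at 132 h. One run at 132 h held 1 mouse per group and another held 1 CLA mouse and 2 controls. In both of these small runs Clec4e and Clec4n were higher without overlap too. With 1 mouse per group, any gene with unequal values is apart. The share of all genes apart within runs was not counted, so nothing is read from these separations.

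Macrophage markers moved with these receptors. Of 11 macrophage markers tested, 10 were higher with CLA at both times (edgeR, adjusted p under 0.05), against 24.9% of all genes at 108 h and 27% at 132 h. The exception was Mertk (log2 fold change 0.21 ± 0.23 and 0.30 ± 0.16). The summed macrophage markers ran from 2526 to 4008 CPM in CLA glands and from 857 to 1657 CPM in controls at 108 h, and from 2628 to 5094 against 587 to 1097 CPM at 132 h. Lyz2 was the largest part of this sum, with a mean of 681 CPM over the 40 libraries, against 216 CPM for Csf1r, the next. Ratios to the sum therefore depend on Lyz2 more than on any other marker. In whole tissue, more cells of a type and more RNA per cell cannot be told apart. Per 1000 CPM of macrophage markers, Clec12a stood at 10.3 to 17.9 CPM in CLA glands and 1.66 to 4.40 CPM in controls at 108 h, and at 14.4 to 17.9 against 2.37 to 2.56 CPM at 132 h.

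The other members differed in that ratio. At 108 h, per 1000 CPM of macrophage markers, Clec4b1 was apart at 3.10 to 4.62 CPM in CLA glands and 0.688 to 2.56 CPM in controls. Clec4a2 overlapped at 6.75 to 12.7 CPM in CLA glands and 2.56 to 7.80 CPM in controls, and Clec7a overlapped at 6.31 to 11.8 against 4.93 to 8.82 CPM. Clec4a3, Clec10a, Clec4d and Clec4e overlapped as well, and Clec4n was lower, at 0.712 to 1.40 CPM in CLA glands and 1.64 to 8.22 CPM in controls. At 132 h Clec4a2 stood at 8.83 to 13.2 CPM in CLA glands and 4.71 to 6.11 CPM in controls, Clec4b1 at 2.86 to 4.68 against 1.11 to 2.33 CPM, and Clec7a at 8.08 to 12.9 against 3.32 to 7.75 CPM, so these 3 were apart. Clec10a overlapped at 31.1 to 39.8 CPM in CLA glands and 23.1 to 59.3 CPM in controls, and Clec4a3 overlapped at 8.30 to 10.5 against 6.31 to 9.73 CPM. Clec4d and Clec4e overlapped, and Clec4n was again lower at 0.745 to 1.24 CPM in CLA glands and 2.65 to 3.36 CPM in controls. These ratios describe the libraries, and what part macrophage number has in the receptor levels was not tested.

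Adipocyte markers moved with the receptors in the other direction. All 5 (Adipoq, Plin1, Lep, Cidec and Lipe) fell with CLA at both times (edgeR), against 23% of all genes lower at 108 h and 29% at 132 h. Their sum ran from 2563 to 3536 CPM in CLA glands and from 4634 to 6103 CPM in controls at 108 h, and from 2484 to 3788 against 5008 to 7157 CPM at 132 h, with no overlap. What part adipocyte RNA has in the receptor levels was not tested.

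Other cell types gave mixed values, to be read against the 24.9% of genes higher and 23% lower at 108 h, and the 27% higher and 29% lower at 132 h. Of 8 dendritic cell markers, 3 at 108 h and 4 at 132 h were higher with CLA and 1 was lower at each time. Itgax, an integrin shared by dendritic cells and activated macrophages, rose by 3.90 ± 0.22 and 5.06 ± 0.39 on the log2 scale. None of the 6 neutrophil markers tested at 108 h or the 5 tested at 132 h passed the threshold (edgeR, unadjusted p under 0.05 for 0 and 1 of them). Ly6g, the defining neutrophil surface gene, had 0 counts in 22 of the 40 libraries and at most 0.0994 CPM. Of 5 resident macrophage markers 3 rose at 108 h and 5 at 132 h, and their sum ran from 272 to 380 CPM in CLA glands and from 185 to 245 CPM in controls at 108 h. Of the lymphocyte markers 2 of 7 rose at 108 h and 1 of 6 fell at 132 h, and of 5 mast cell markers 1 fell at 108 h and none at 132 h. None of the 5 mammary epithelium markers passed at 108 h or 132 h (edgeR, unadjusted p under 0.05 for 0 and 1 of them). Among monocyte markers, of which 2 of 7 rose at 108 h and 3 of 6 at 132 h, Ccr2 rose at both times (1.47 ± 0.29 and 1.99 ± 0.23), while Ly6c2 had log2 fold changes of −0.08 ± 0.27 and −0.18 ± 0.12, which did not pass the test.

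Levels per length had a stable top and a changing bottom. Clec10a was highest in every group, with a mean of 37.3 ± 9.50 RPKM in CLA glands and 10.3 ± 0.38 RPKM in controls at 108 h (SD, n = 5 each), and its range did not overlap that of the next gene in any group. Clec4a3 was the next in every group, with 18.4 ± 4.65 RPKM in CLA glands and 4.84 ± 0.75 RPKM in controls at 108 h. Clec12a was at 6.28 ± 1.49 RPKM with CLA at 108 h, between Clec7a and Clec4d, but in controls at 108 h it was the lowest of the 9 at 0.377 ± 0.077 RPKM. Clec4e was the lowest with CLA at both times, at 0.528 ± 0.513 and 0.385 ± 0.180 RPKM, and its range did not reach that of Clec4n. From the third rank down to the seventh in the controls, ranges of neighbours overlapped, so their order is not fixed.

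Across the 8 groups, the order of mean CPM for Clec12a, Clec4b1, Clec4a2, Clec4a3 and Clec10a put CLA at 132 h and then CLA at 108 h at the top, with overlapping ranges between them and a gap below them. For Clec12a the other 6 groups lay between 1.99 ± 0.48 CPM (controls at 132 h) and 3.39 ± 0.89 CPM (controls at 60 h), each overlapping its neighbour. Clec7a had the same 2 groups on top, but CLA at 108 h (16.6 to 38.1 CPM) reached down to the controls at 60 h (3.60 to 17.0 CPM). For Clec4d, Clec4e and Clec4n all neighbours overlapped, and the highest mean was that of CLA at 108 h for Clec4d and of controls at 108 h for the other two.

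Estrogen is the comparison in which the 9 receptors could be tested. At 60 h, 0 of the 9 passed the threshold in edgeR's quasi-likelihood test (adjusted p under 0.05), against 6.49% of 17248 genes, and 2 had an unadjusted p under 0.05, against 23% of genes. Their log2 fold changes ran from −0.85 to −0.02, with a median of −0.49 against 0.00 over all genes tested. The smallest adjusted p belonged to Clec4b1, which had 1.76, 1.55, 1.99, 1.29 and 0.985 CPM in estrogen glands, against 2.22, 1.92, 2.34, 1.83 and 2.33 CPM in controls. All 5 estrogen values were below the control mean but the groups overlapped, and its log2 fold change was −0.49 ± 0.17 (95% interval −0.85 to −0.12, adjusted p = 0.0953, lowest over the alternatives 0.0537).

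Clec12a had 3.35, 2.52, 2.16, 1.78 and 1.97 CPM in estrogen glands at 60 h, against 4.04, 3.25, 2.75, 2.39 and 4.53 CPM in controls. Its log2 fold change was −0.53 ± 0.21 (adjusted p = 0.134), with all 5 estrogen values below the control mean. Clec10a had 35.6, 42.4, 40.7, 39.7 and 26.0 CPM in estrogen glands, against 39.3, 29.1, 36.3, 39.3 and 43.4 CPM in controls, a log2 fold change of −0.02 ± 0.15 (95% interval −0.34 to 0.29). The intervals of Clec4d and Clec4e were wide, reaching from −2.46 to 1.47 and from −2.77 to 1.06.

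At 84 h again 0 of the 9 passed, against 5.42% of 17180 genes, and 2 had an unadjusted p under 0.05, against 21.4% of genes. Clec4e had 1.54, 0.712, 0.158, 0.253 and 0.471 CPM in estrogen glands, against 1.30, 4.58, 2.20, 3.64 and 0.391 CPM in controls, a log2 fold change of −1.89 ± 0.83 (95% interval −3.62 to −0.15, adjusted p = 0.194). Clec7a had 2.62, 4.17, 2.11, 3.17 and 4.04 CPM in estrogen glands, against 5.61, 3.67, 4.37, 9.96 and 5.55 CPM in controls, a log2 fold change of −0.85 ± 0.39 (95% interval −1.67 to −0.02, adjusted p = 0.222). All 5 estrogen values were below the control mean for Clec4d, Clec4e and Clec7a, with overlapping ranges. Clec4a2, Clec4a3 and Clec4b1 had log2 fold changes of −0.01 ± 0.17, −0.00 ± 0.16 and −0.06 ± 0.21. The median over the 9 was −0.23, against −0.01 over all genes.

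The macrophage markers ran from 759 to 1983 CPM in estrogen glands and from 742 to 1821 CPM in controls at 60 h, and from 822 to 983 against 850 to 1491 CPM at 84 h. None of the 11 tested passed at either time (edgeR, unadjusted p under 0.05 for 1 and 0 of them). Mammary epithelium markers moved with estrogen: all 5 rose at 60 h and 3 of 5 at 84 h, against 4.07% and 3.45% of genes higher. Their sum ran from 120 to 336 CPM in estrogen glands and from 6.42 to 78.1 CPM in controls at 60 h, and from 219 to 381 against 11.9 to 123 CPM at 84 h, with no overlap. None of the 5 adipocyte markers passed at either time (unadjusted p under 0.05 for 0 and 0 of them), and their sum ran from 4891 to 5858 CPM in estrogen glands and from 5937 to 6716 CPM in controls at 84 h. Of the 5 mast cell markers 1 fell at 60 h and 4 at 84 h, against 2.42% and 1.97% of genes lower, with sums of 47.5 to 90.6 CPM in estrogen glands and 96.4 to 160 CPM in controls at 84 h. Of the 5 resident macrophage markers 1 rose at each time, and of the 8 dendritic cell markers 1 fell at 60 h. What part these cells have in the receptor levels was not tested. The change of the estrogen effect from 60 h to 84 h was fitted to all 40 libraries, and 0 of the 9 passed, against 0.0056% of 17852 genes, and none had an unadjusted p under 0.05, against 6.5% of genes. The largest differences were −1.04 ± 1.26 for Clec4e and −0.83 ± 1.21 for Clec4d, and the narrowest was Clec10a at 0.08 ± 0.23.

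Controls at 84 h were also compared with controls at 60 h, a contrast with no treatment. Time and run of animal numbers are partly mixed in it: 4 of 5 mice at 60 h came from a run that gave 1 of 5 mice at 84 h. Of the 9 receptors 0 passed, against 0.353% of genes, and 3 had an unadjusted p under 0.05 (edgeR), against 12.8% of genes. These were Clec4a2 (−0.48 ± 0.18, adjusted p = 0.201), Clec4a3 (−0.42 ± 0.18, adjusted p = 0.277) and Clec4b1 (−0.42 ± 0.19, adjusted p = 0.339). Clec4a2 had 3.78, 4.91, 3.88, 3.71 and 4.69 CPM in controls at 84 h, against 6.53, 6.92, 4.88, 4.53 and 6.41 CPM at 60 h, and the ranges overlapped. With run of animal numbers as a term, an alternative added after seeing the data, Clec4a2 passed (−0.71 ± 0.17, adjusted p = 0.0408) and the other 8 did not. Over the other alternatives its adjusted p was no lower than 0.154. The median over the 9 was −0.42, against 0.01 over all genes.

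Mouse to mouse spread split the family. The standard deviation within groups on the log2 CPM scale was 1.55 for Clec4d and 1.52 for Clec4e, at or above the 99.7th percentile of 12386 genes, and 0.68 for Clec7a. It was 0.26 to 0.42 for the other 6. In estrogen glands at 60 h Clec4d had 11.8, 12.5, 0.795, 0.164 and 4.69 CPM, against 12.3, 16.3, 2.63, 0.311 and 10.6 CPM in controls. Each group therefore held both a library near or under 1 CPM and a library above 10 CPM. Clec4e in the same mice had 4.25, 4.10, 0.880, 0.110 and 1.83 CPM with estrogen, against 7.80, 5.83, 1.89, 0.242 and 4.28 CPM in controls, high and low in the same libraries as Clec4d.

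Deviations from the group means were correlated over the 40 libraries for the 36 pairs of members, with 100000 permutations within groups and adjustment over the 36. Clec4d and Clec4e had Pearson's r of 0.905 and Spearman's rho of 0.907 (adjusted permutation p = 7.2e-05 and 0.00012), r of 0.874 without the 2 libraries farthest from the median, and r of 0.878 to 0.962 within the 4 runs of animal numbers. The permutation p behind them, 1e-05, is the smallest these permutations can give. Clec4d also followed Clec7a (r = 0.771, rho = 0.797, adjusted p = 7.2e-05, and 0.754 without the 2). By contrast, Clec4d and Clec10a had r of −0.105 and rho of −0.137 (adjusted p = 0.649). In all, r had an adjusted p under 0.05 for 18 of the 36 pairs, and none of the 8 pairs with Clec10a was among them. Clec4n passed with 1 partner, Clec4a2 (r = 0.496, rho = 0.517, adjusted p = 0.00457, and 0.538 without the 2).

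**Figure D3:**
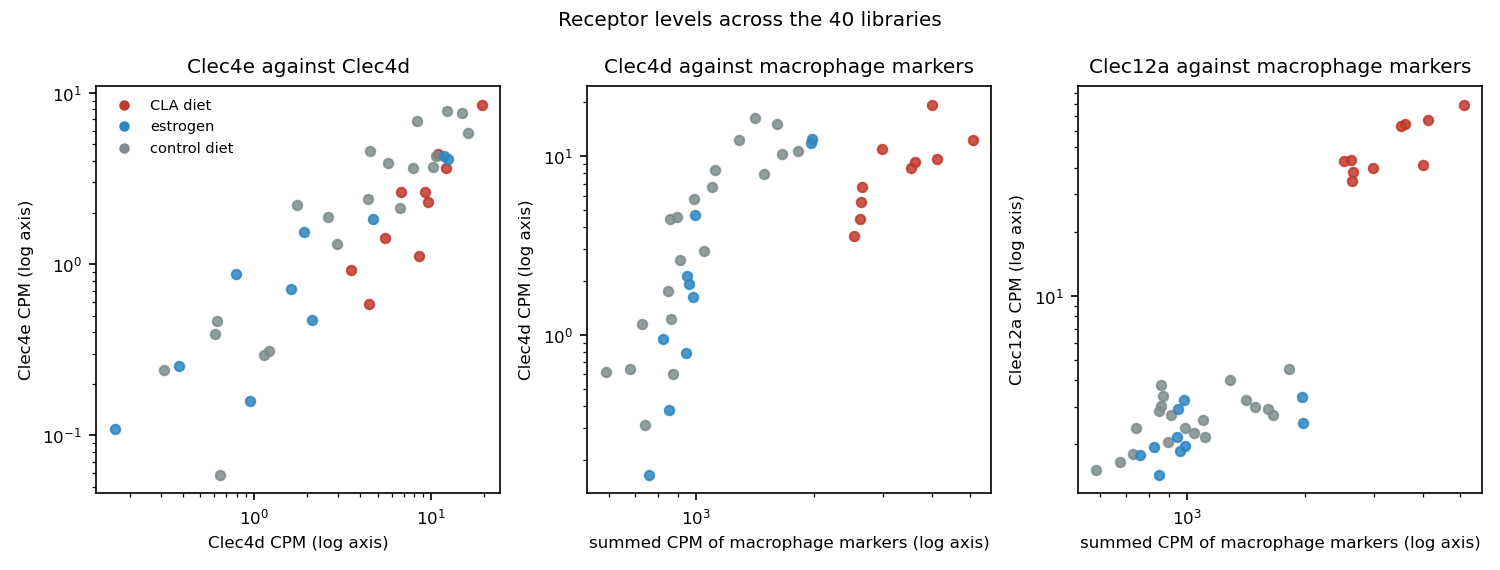
CPM (log axes) in each of the 40 libraries for Clec4e against Clec4d, Clec4d against the summed macrophage markers, and Clec12a against the same sum, coloured by regimen. Clec4d and Clec4e rise together in every regimen, while the CLA libraries form a separate cloud for Clec12a at 34.9 CPM or more.

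The same deviations were set against 8 cell type lists (72 relations), of which 23 had an adjusted p under 0.05 for r. With the macrophage sum, r was 0.884 for Clec7a (rho = 0.890) and 0.845 for Clec4d (rho = 0.839), with adjusted permutation p of 6.545e-05 each. For Clec10a with the same sum r was 0.209 and rho 0.196 (adjusted p = 0.428). Clec10a passed with the resident macrophage sum by r (0.436, adjusted permutation p = 0.0443) and not by rho (0.367, adjusted p = 0.0904). Clec4d followed the neutrophil sum (r = 0.882, rho = 0.856) and the lymphocyte sum (r = 0.729, rho = 0.745), each with an adjusted p of 6.545e-05 and with r of 0.845 and 0.682 without the 2 farthest libraries. Most of the neutrophil sum is Csf3r, which monocytes also express. With the dendritic cell sum, r passed for Clec4a3 (0.713), Clec7a (0.709), Clec4a2 (0.647) and Clec12a (0.619). It passed also for Clec4d (0.479), Clec4b1 (0.449) and Clec4e (0.418), and not for Clec10a (0.338) or Clec4n (0.327). Clec12a and Clec4a2 had lower r with the macrophage sum, 0.588 and 0.533. Sirpa, with a mean of 206 CPM over the 40 libraries, was the largest part of the dendritic cell sum. Deviations of the members from their group means had r between −0.143 and 0.273 with the log2 total count.

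The genes most like each member over the 40 libraries, by Pearson's r of these deviations among 12385 genes (12386 for Clec4e), were named by rule, with Spearman's rho of 0.546 to 0.940. For Clec4d they were Prg4 (r = 0.934), Ncf4 (0.913) and Fgr (0.913), and for Clec4e Serpinb2 (0.910), Clec4d (0.905) and Saa3 (0.896). For Clec7a they were Mpeg1 (0.912), Cybb (0.903) and Fyb (0.900), and for Clec4a3 Cd200r1 (0.871), Snx5 (0.864) and Lgmn (0.860). Trem2 led for both Clec12a (0.813) and Clec4b1 (0.623), the first followed by Arhgap9 (0.790) and Arhgap25 (0.778), the other by Hk3 (0.610) and Pck2 (0.601). Clec4a2 was closest to Pik3ap1 (0.765), Clec4a3 (0.756) and Lcp1 (0.754). Clec10a was closest to Anpep (0.785), Folr2 (0.742) and Colec12 (0.711), and Clec4n to Pdpn (0.700), Hmox1 (0.686) and Arel1 (0.618).

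Prg4 and Serpinb2 are genes of large peritoneal macrophages, so 8 genes of those cells and 3 of the peritoneal lining were looked at, chosen after seeing the data and without a test. Over the 40 libraries Prg4 ran from 2.20 to 318 CPM, Alox15 from 0.802 to 204, F5 from 0.932 to 45.3 and Serpinb2 from 0 to 49.8. Their r with Clec4d was 0.845 to 0.934. Gata6, the transcription factor of these macrophages, ran from 10.1 to 19.9 CPM, with r of 0.294 with Clec4d. Garnl3 had r of −0.093, Icam2 of 0.510 and Selp of 0.634. The summed 8 genes ran from 79.1 to 662 CPM in CLA glands and from 73.1 to 413 CPM in controls at 108 h, and from 84.6 to 495 CPM in estrogen glands and from 74.1 to 375 CPM in controls at 60 h. At 132 h the sum ran from 79.6 to 180 against 67.7 to 256 CPM, and at 84 h from 70.3 to 143 against 79.7 to 331 CPM. The lining genes Msln, Upk3b and Wt1 did not exceed 0.432 CPM. What part such cells have in the spread of Clec4d and Clec4e was not tested.

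Most listed genes of the signalling chain were higher in RNA with CLA, in glands where macrophage markers were higher too. What part macrophage number has in these genes and in the target genes below was not tested. Signalling itself was not measured. Of 17 signalling genes, 14 rose and 1 fell at both times (edgeR, adjusted p under 0.05), against 24.9% and 23% of all genes at 108 h and 27% and 29% at 132 h. The adaptor Fcer1g averaged 97.7 ± 14.9 CPM in CLA glands and 25.6 ± 2.46 CPM in controls at 108 h, a log2 fold change of 1.93 ± 0.21 (adjusted p = 6.3e-07), and 2.54 ± 0.16 at 132 h. Tyrobp, the adaptor of related receptors, rose by 2.32 ± 0.26 and 3.15 ± 0.22. Syk rose by 1.71 ± 0.33 and 2.30 ± 0.24, and Prkcd, the kinase between Syk and Card9, by 1.33 ± 0.11 and 1.72 ± 0.15. Bcl10 rose less, by 0.47 ± 0.05 and 0.53 ± 0.08, and so did the NF-kB subunit Rela, by 0.18 ± 0.05 and 0.14 ± 0.05.

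The phosphatases of the inhibitory arm parted. Ptpn6 averaged 52.5 ± 10.6 CPM in CLA glands and 19.5 ± 4.55 CPM in controls at 108 h and rose by 1.43 ± 0.26 and 1.70 ± 0.26 on the log2 scale at the 2 times. Ptpn11, which most cells express, fell by 0.22 ± 0.08 at 108 h (adjusted p = 0.0287) and by 0.36 ± 0.07 at 132 h (adjusted p = 0.000363). The call at 108 h ended on leaving out CLA replicates 1, 2, 4 or 5, or the third control, with the adjusted p between 0.0501 and 0.094 (edgeR), and in limma on RPKM (adjusted p = 0.0645 and 0.066). Nfkb1 and Nfatc1 did not pass at either time, with log2 fold changes of 0.13 ± 0.06 and 0.15 ± 0.10 at 108 h.

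Of 13 genes listed as targets of these receptors, 10 were tested. Of these, 4 rose at 108 h and 7 at 132 h with none falling, against 24.9% and 27% of all genes higher. Egr2, a transcription factor, averaged 40.2 ± 9.19 CPM in CLA glands and 5.04 ± 2.45 CPM in controls at 108 h, a log2 fold change of 2.99 ± 0.41 (adjusted p = 9.55e-06) and 2.80 ± 0.34 at 132 h. The chemokine Ccl3 rose by 2.59 ± 0.58 and 3.45 ± 0.44, and the cytokine Il10 by 2.13 ± 0.48 and 2.91 ± 0.54, both from low levels (Il10 averaged 0.976 ± 0.399 CPM with CLA and 0.220 ± 0.078 CPM in controls at 108 h). Nlrp3 rose by 1.09 ± 0.37 at 108 h (adjusted p = 0.0222, edgeR), and Ptgs2 by 1.05 ± 0.23 at 132 h (adjusted p = 0.000675). The Nlrp3 call ended on leaving out CLA replicate 3 or control replicates 1 or 4 (adjusted p of 0.0549 to 0.0956, edgeR). It also ended without skin-high libraries (0.212) and with run of animal numbers as a term (0.0613). Il1b did not pass, at −0.40 ± 0.46 and 0.44 ± 0.41. Among 5 genes listed for ligands from the body's own cells, Anxa1 (0.98 ± 0.09 and 1.34 ± 0.12), Vim (0.84 ± 0.09 and 1.15 ± 0.10) and Anxa5 (0.31 ± 0.06 and 0.40 ± 0.07) rose at both times. The Anxa5 call at 132 h ended once skin-high libraries were left out (0.23, adjusted p = 0.076, edgeR). Sap130 was listed by its name, but it encodes a Sin3A-associated protein and not the spliceosome protein of that name that Clec4e binds. It is still counted among these 5 and among the 32 below. Sap130 had −0.15 ± 0.07 at 108 h, which did not pass, and fell by 0.25 ± 0.07 at 132 h. That call at 132 h ended in limma on RPKM (−0.087 and −0.080 with pseudocounts of 0.1 and 1, adjusted p = 0.319 and 0.32). The median log2 fold change over the 32 signalling, target and ligand genes tested was 0.73 at 108 h and 1.10 at 132 h, against −0.01 and −0.03 over all genes.

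**Figure D4:**
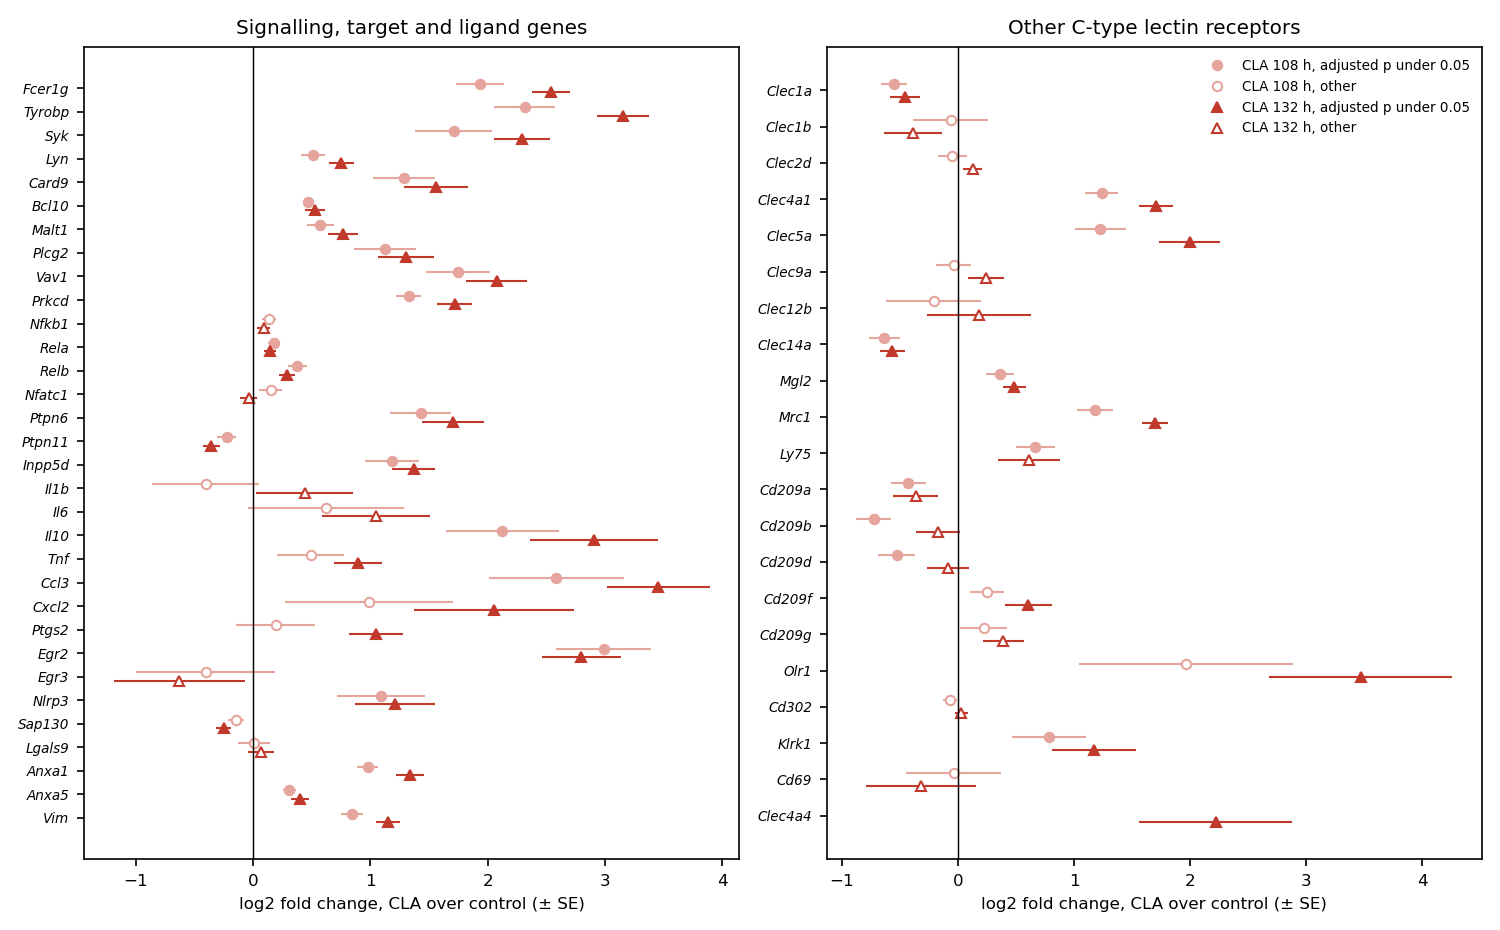
Fitted log2 fold changes (CLA over control, error bars SE, n = 5 per group) of genes around the receptors and of other C-type lectin receptors at 108 h and 132 h. Filled symbols passed an adjusted p of 0.05 in edgeR. Signalling genes lie mostly right of 0, while the other lectin receptors lie on both sides, from −0.72 (Cd209b) to 3.47 (Olr1).

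Other C-type lectin receptors went both ways. Of 26 listed, 20 were tested at 108 h, with 6 rising and 5 falling, near the shares over all genes (24.9% higher and 23% lower). At 132 h 21 were tested, with 8 rising and 2 falling, against 27% and 29% of all genes. Clec4a1, a close relative of Clec4a3, rose by 1.24 ± 0.14 and 1.71 ± 0.14, Clec5a by 1.23 ± 0.22 and, at 132 h, 3.99-fold, and the mannose receptor Mrc1 by 1.18 ± 0.16 and 1.70 ± 0.11. Mgl2, the near copy of Clec10a, averaged 29.6 ± 5.31 CPM in CLA glands and 23.0 ± 2.91 CPM in controls at 108 h and rose by 0.36 ± 0.12 and 0.49 ± 0.10. Ly75 rose at 108 h (0.67 ± 0.17) and did not pass at 132 h (0.61 ± 0.27, adjusted p = 0.0566). Clec14a and Clec1a, receptors of blood vessel lining, fell by 0.63 ± 0.13 and 0.55 ± 0.12 at 108 h and by 0.57 ± 0.11 and 0.45 ± 0.13 at 132 h. Cd209b and Cd209d fell at 108 h (by 0.72 ± 0.15 and 0.53 ± 0.16) and did not pass at 132 h. The call of Cd209d at 108 h ended in limma on RPKM (−0.41 and −0.35, adjusted p = 0.0599 and 0.0617).

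With estrogen few of these genes passed. Of the 32 signalling, target and ligand genes tested, 1 rose and 2 fell at 60 h (edgeR), while at 84 h the count was 1 in each direction. The background was 4.07% and 2.42% of genes at 60 h and 3.45% and 1.97% at 84 h. Il1b averaged 0.468 ± 0.265 CPM in estrogen glands and 2.03 ± 1.49 CPM in controls at 60 h and fell by 2.12 ± 0.50 (adjusted p = 0.0214). Il10 fell by 2.77 ± 0.70 (adjusted p = 0.0268) at 0.0376 ± 0.0418 CPM in estrogen glands and 0.280 ± 0.271 CPM in controls, levels of a few counts per library. Anxa1 rose by 0.31 ± 0.09 (adjusted p = 0.0476). Leaving out control replicate 2 ended the calls of Il1b and Il10 (adjusted p = 0.0541 and 0.0714, edgeR), as did leaving out estrogen replicate 5 for Il10 (0.0628). The Anxa1 call ended without any 1 of the 10 libraries except control replicate 2 and estrogen replicate 3. At 84 h Egr2 averaged 13.1 ± 4.62 CPM in estrogen glands and 3.51 ± 0.93 CPM in controls and rose by 1.90 ± 0.33 (adjusted p = 0.00242). Ptgs2 fell by 0.84 ± 0.24 (adjusted p = 0.0426). Among other lectin receptors 1 of 20 passed at 60 h, Klrk1, which fell by 1.17 ± 0.33 (adjusted p = 0.0435), and 0 of 21 at 84 h, where 3 had an unadjusted p under 0.05. The Klrk1 call ended without any 1 of its 10 libraries except control replicates 4 and 5 and estrogen replicate 2, and that of Ptgs2 without any 1 of its 10 libraries except control replicate 3 and estrogen replicate 1. Leaving out skin-high libraries also ended the calls of Il1b, Il10, Anxa1, Klrk1 and Ptgs2 (adjusted p of 0.0594 to 0.482), and so did limma on log2(RPKM + 1) for all of these but Anxa1 (0.105 to 0.233). Egr2 at 84 h passed under all 19 alternatives.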

How the data were processed

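RNA from 40 glands was sequenced as poly-A libraries with a stranded kit and 10 PCR cycles, per the labels' protocols. The authors deposited whole-number counts per gene and, separately, RPKM per gene, each in a table of 60 h and 108 h and a table of 84 h and 132 h, on build GRCm38 per the submitters' processing notes. Which aligner, counter and gene annotation they used was not stated in the labels or headers. TMM-scaled CPM and the deposited RPKM did not rank the 40 libraries alike within a gene (Spearman's rho 0.860 to 0.998 over the members). The 2 measures also differ in library scaling, so this does not tell how the deposited counts and RPKM were made. No 2 libraries of a group agreed within sampling noise (lowest chi-square per gene 12.3 over 80 pairs). The lists and members were chosen with earlier results of these data known.

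Counts were filtered with filterByExpr (minimum count 10, minimum total 15), TMM-scaled and tested with edgeR 4.0.16 (quasi-likelihood, robust) in R 4.3.3, with Benjamini-Hochberg adjusted p under 0.05 over all genes tested. The 20 libraries of a table shared 1 fit. Controls at 84 h against 60 h, and the change of the estrogen effect, used 1 fit of all 40. Also tried were DESeq2 1.42.0, scaling by RLE or by upper quartiles, leaving the filter out, a minimum count of 50, limma 3.58.1 on log2(RPKM + 0.1) and log2(RPKM + 1), the groups of the comparison alone, runs of animal numbers as a term (for the fit of all 40, added after seeing the data) or values within them, libraries with a skin signal left out, and each library left out in turn. Correlations used deviations of log2(CPM + 0.1) from group means and 100000 permutations within groups.

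All 9 members were named in every comparison. Of each other list, up to 4 genes per direction with the smallest p among those past the threshold were named, with 3 genes most like each member. Syk and Mgl2 at 108 h, Bcl10 at 132 h, Rela, Ptpn6, Nfkb1, Nfatc1, Olr1, Il1b and Sap130 with CLA where they fall outside that rule, and Ly75, Cd209b and Cd209d at 132 h, were named after their values were seen. Markers were described per list. Gene positions and shared 50-base words came from GENCODE M21, and promoter windows from RefSeq. The test script was checked on simulated data.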

Additional observations from a re-analysis of the deposited data

Results flagged for a closer look

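Of 72 sets of 5 libraries (9 receptors in 8 groups), 5 held a library whose gap to its nearest neighbour was large for the group's range, where chance gives about 1 in 20. In 4 of them it was the fourth CLA library at 108 h. That library held 63.3 CPM of Clec12a (the others 34.9 to 42.9), 44.7 CPM of Clec4a2 (27.1 to 30.2), 49.5 CPM of Clec4a3 (28.6 to 30.8) and 166 CPM of Clec10a (92.7 to 102). Without it the log2 fold changes at 108 h were 3.76 ± 0.20 for Clec12a, 2.30 ± 0.17 for Clec4a2, 1.64 ± 0.16 for Clec4a3 and 1.57 ± 0.11 for Clec10a. The other set was Clec4b1 in controls at 84 h, where the third library held 1.84 CPM and the others 1.49 to 1.56 CPM.

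Clec4n was drawn out by direction, since all 5 CLA values lay below the control mean at 108 h and all 5 above it at 132 h. The log2 fold changes differed by 0.71 ± 0.37, and this difference was not tested. The control mean at 108 h includes a library at 7.04 CPM, the highest of that group.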

How the results depend on the processing

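No paired analysis was possible because each library came from a different mouse. The labels give animal numbers and no replicate numbers. Replicate numbers used here follow the order of animal numbers within a group. The receptors passing the threshold stayed at 0 in all 4 tested comparisons under every alternative run, leave-one-out included, with 1 exception: run of animal numbers as a term, added after seeing the data, made it 1 between control times (Clec4a2). Non-overlapping receptors stayed at 6 with CLA at 108 h and ran from 6 to 9 at 132 h, 9 being within a run of 1 CLA library and 2 controls, and from 6 to 7 with 1 library left out. Around the receptors, 20 to 23 genes passed with CLA at 108 h and 22 to 28 at 132 h.

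With estrogen at 60 h the 3 signalling, target and ligand genes became 0 with the groups alone or without skin-high libraries, 1 with limma on log2(RPKM + 1), and 1 to 3 leaving out 1 library. At 84 h the 2 became 1 with no filter, either limma fit, the groups alone or no skin-high libraries, and 1 to 3 leaving out 1 library. The 1 other lectin receptor at 60 h became 2 with DESeq2 and 0 with no filter, either limma fit, the groups alone or no skin-high libraries (0 to 1 leaving out 1 library), and the 0 at 84 h became 1 with no filter (0 to 1). Over all genes, 1119 passed with estrogen at 60 h (316 to 1210 leaving out 1 library, 513 to 1878 otherwise), 931 at 84 h (443 to 1152, 259 to 1617), and 63 between control times (15 to 302, 6 to 342). The change of the estrogen effect had 1 gene (1 to 2, 0 to 18).

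No value whose sign turned passed the threshold or, with CLA, was tested. With CLA at 108 h, Clec4d ran from −0.134 to 0.668 and Clec4n from −0.375 to 0.073 leaving out 1 library, and Clec4n was 0.021 without skin-high libraries and also turned, barely above 0, with limma on log2(RPKM + 0.1). In the tested comparisons, without skin-high libraries the turned values were −0.27 for Clec12a in the change of the estrogen effect, 0.078 for Clec10a with estrogen at 60 h and −0.057 for Clec10a between control times, which limma put at −0.016 and −0.014 and the run term at −0.11. Upper-quartile scaling gave 0.0020 for Clec10a at 60 h. At 84 h Clec4a2 was 0.012 with upper-quartile scaling, 0.0034 with no filter, 0.0073 with a minimum of 50, 0.016 and 0.0068 with limma and 0.0025 with the groups alone. Clec4a3 was 0.00040 with RLE, 0.023 with upper-quartile scaling, 0.00013 with DESeq2, 0.013 with no filter, 0.017 with a minimum of 50, 0.082 and 0.066 with limma and 0.014 with the groups alone. Leaving out 1 library gave −0.023 to 0.157 for Clec10a and −0.60 to 0.118 for Clec7a in the change of the estrogen effect, −0.052 to 0.084 for Clec10a between control times, −0.101 to 0.080 for Clec10a and −0.281 to 0.031 for Clec4n at 60 h, and −0.024 to 0.155 for Clec10a, −0.071 to 0.051 for Clec4a2, −0.064 to 0.104 for Clec4a3 and −0.113 to 0.011 for Clec4b1 at 84 h. The cause was not tested. Depth limits Clec4e most, which had 1 to 9 counts in its 6 lowest libraries.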
